A study of Mus musculus with 12 samples.

Results

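The 7 beta-tubulin genes Tubb5, Tubb4b, Tubb6, Tubb2b, Tubb2a, Tubb3 and Tubb4a were followed across 12 bulk RNA libraries of MOC2 cells, a mouse oral squamous carcinoma line. They were taken by gene symbol from the 55421 Ensembl genes of the deposited count table, and each symbol named a single row. MOC2-25 cells, labelled EV-proficient, and MOC2-27 cells, labelled EV-deficient, were each sampled in vitro as DMSO controls and after 600 nM paclitaxel for 48 h, with 3 libraries in each of the 4 groups. EV stands for extracellular vesicle. Paclitaxel was given to induce senescence, per the labels' protocols. The series describes a genetic block of vesicle secretion, without naming the gene or the construct. Each EV label was carried by 1 derivative, so the label and any other difference between the derivatives cannot be told apart. The labels number the replicates but do not say that they were separate cultures, so p-values measure the spread between these libraries, which may be technical.

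Microtubules are polymers of alpha- and beta-tubulin heterodimers. Paclitaxel binds the beta subunit on the inner face of the polymer, stabilises the microtubule and disturbs the mitotic spindle. Vertebrate beta-tubulins come as isotypes from separate genes that share most of their coding sequence and differ mainly in an acidic C-terminal tail. Class I (Tubb5) and class IVB (Tubb4b) are made in nearly all cells, class V (Tubb6) is also widespread, and classes II, III and IVA are best known from the nervous system. Class III and class V have been studied in tumour cells for their relation to taxane response. Cells also tune tubulin messages to the amount of free tubulin: when free dimer is in excess, the factor TTC5 recognises the first residues of a nascent tubulin chain on the ribosome, and the message is degraded.

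The coding start is shown here because it encodes the residues read by that autoregulation, which the isotypes spell with different codons. In the GENCODE M21 transcripts, built on GRCm38, the first 12 coding bases (start codon first, all in capitals) of 6 members were as follows.
Tubb5: ATGAGGGAAATC
Tubb4b: ATGAGGGAGATC
Tubb2b: ATGCGAGAGATC
Tubb2a: ATGCGCGAGATC
Tubb3: ATGAGGGAGATC
Tubb4a: ATGCGGGAAATC
Tubb4b and Tubb3 had identical letters in this stretch, and no other pair of these 6 did.

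At the other end of the coding sequence lies the tail by which isotypes are told apart, and to which glutamate chains are added in the cell. The last 60 coding bases, stop codon included, are printed in lower case, with capitals in Tubb2a and Tubb2b marking the bases at which that pair differs within this stretch.
Tubb5: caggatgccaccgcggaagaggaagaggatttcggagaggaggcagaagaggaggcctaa
Tubb4b: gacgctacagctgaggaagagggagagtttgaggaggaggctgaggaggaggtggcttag
Tubb4a: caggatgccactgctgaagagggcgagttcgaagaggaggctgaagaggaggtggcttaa
Tubb2b: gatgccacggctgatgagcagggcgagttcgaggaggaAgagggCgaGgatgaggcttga
Tubb2a: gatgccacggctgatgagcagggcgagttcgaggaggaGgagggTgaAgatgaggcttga
Tubb3: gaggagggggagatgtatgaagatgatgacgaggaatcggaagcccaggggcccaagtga
Even in this most variable stretch Tubb2a and Tubb2b differed at 3 bases only, and over their 1338 coding bases at 47 (96.5% identity). The other pairs of members ranged from 80.7% identity (Tubb5 and Tubb6) to 86.5% (Tubb3 and Tubb6).

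Likeness of this degree bears on how reads are divided between genes. Of the 50-base windows of the Tubb2a transcript, 45.6% also occurred in another member's transcript, and 35.9% of its 100-base windows did. For Tubb2b these shares were 33.4% and 26.1%. How the counting treated such reads is not given in the sources used here, so the split between Tubb2a and Tubb2b is uncertain, and their counts were also tested as a single row. Tubb5, Tubb3, Tubb4a and Tubb6 shared no 100-base window with any other gene. Of the 50-base windows of Tubb4b, 55.5% recurred elsewhere, in the pseudogenes Tubb4b-ps1 and Tubb4b-ps2, in Gm16165 and in the overlapping gene Fam166a. Some windows of the Tubb2 pair were also held by the pseudogene Tubb2a-ps2. The 4 rows that share with Tubb4b held between 0 and 50 counts in a library, against at least 18931 for Tubb4b.

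All members lie on GRCm38 as 4-exon coding transcripts in the annotation. Tubb5 (ENSMUSG00000001525, class I) lies at chr17:35833921-35838306 and Tubb4a (ENSMUSG00000062591, class IVA) at chr17:57080066-57087782, both on the minus strand. Tubb2a (ENSMUSG00000058672, class IIA; chr13:34074274-34078007) and Tubb2b (ENSMUSG00000045136, class IIB; chr13:34126748-34130466) are neighbours on the minus strand of chromosome 13. Tubb4b (ENSMUSG00000036752, class IVB) lies at chr2:25222160-25224702 on the minus strand and overlaps Fam166a, which is on the other strand. Tubb3 (ENSMUSG00000062380, class III) lies at chr8:123411424-123422015 on the plus strand, within the span of Gm20388, a row with 0 counts in every library. Tubb6 (ENSMUSG00000001473, class V) lies at chr18:67390717-67402749 on the plus strand.

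Library totals ran from 23263472 to 62955757 counts, and members were read at between 24 counts (Tubb4a) and 139168 counts (Tubb5) in a library. All 7 passed the low-count filter that left 18108 genes for testing. CPM values here are counts scaled to library size multiplied by a trimmed mean of M values (TMM) factor for each library. These factors ran from 0.89 to 0.94 in DMSO libraries and from 1.05 to 1.15 in paclitaxel libraries. Epithelial genes marked the cells: Krt8, Krt18, Krt19, Epcam and Cdh1 had group means of 407 CPM or more in all groups. Among basal squamous markers, Krt5 and Trp63 were at or near 0, at no more than 0.171 and 0.18 CPM in any library, whereas Krt14 was present and varied, with group means from 80.04 CPM (EV-deficient paclitaxel) to 681 CPM (EV-deficient DMSO). Sfn ranged likewise from 53.5 to 328 CPM. The whole list of 10 epithelial genes summed to between 6923 and 7628 CPM in DMSO libraries and between 4229 and 5380 CPM in paclitaxel libraries. A row that the authors added for a dngfr sequence stood at 8.99 ± 3.23 CPM (DMSO) and 3.24 ± 0.68 CPM (paclitaxel) under the EV-proficient label, and at 2.15 ± 0.35 CPM (DMSO) and 10.9 ± 1.4 CPM (paclitaxel) under the EV-deficient label (SD, n = 3 each). It was thus high in the EV-proficient DMSO and the EV-deficient paclitaxel libraries and low in the remaining ones. The labels do not say which derivative carries this sequence, so an exchange of the EV labels between the paclitaxel groups is possible and could not be settled from these files. It would alter every paclitaxel effect within a label, turn the sign of every EV-label difference under paclitaxel and change every interaction. The same dngfr levels would also follow from an exchange between the DMSO groups, which could not be settled either. That exchange would alter the paclitaxel effects and interactions too, and turn the sign of every EV-label difference under DMSO instead. Results are given for the libraries as labelled. The average of both paclitaxel effects, which does not depend on how the EV labels fall within a treatment, is also given for the members and the lists, and the members' values with the labels exchanged, computed after the data were seen, stand beside the results that they change.

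Per kilobase of annotated exons, the scale on which different genes can be compared, Tubb5 was the leading isotype in every library. In EV-proficient DMSO libraries it stood at 705 ± 26 CPM per kilobase, followed by Tubb4b at 387 ± 17, Tubb6 at 200 ± 15 and Tubb2b at 109 ± 9.0 (SD, n = 3 each). Tubb2a at 50.5 ± 0.89, Tubb3 at 25.8 ± 1.9 and Tubb4a at 0.316 ± 0.046 CPM per kilobase completed the order. Neighbours in this order did not overlap in any group. The order was the same in 3 of the 4 groups; in EV-deficient DMSO libraries Tubb3 (37.2 ± 1.6) stood above Tubb2a (32.7 ± 1.2), with Tubb2b at 46.4 ± 3.7. The platelet and megakaryocyte isotype Tubb1, which is outside the 7, held between 0 and 8 counts and was not tested.

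Of the summed beta-tubulin level per kilobase, Tubb5 made up 47.7% ± 0.69 without and 52.7% ± 0.099 with paclitaxel under the EV-proficient label (SD, n = 3 each). Under the EV-deficient label its share was 52.3% ± 0.078 without and 48.8% ± 1.5 with the drug. As labelled, the class II pair went the opposite way. Tubb2b contributed 7.38% ± 0.27 and 4.21% ± 0.20 in the EV-proficient DMSO and paclitaxel libraries, and 3.47% ± 0.14 and 8.81% ± 0.095 in the EV-deficient ones. With the EV labels of the paclitaxel groups exchanged, the share of Tubb5 went from 47.7% to 48.8% and from 52.3% to 52.7%, and that of Tubb2b from 7.38% to 8.81% and from 3.47% to 4.21%. Tubb4b kept between 26.1% and 29.6% of the mix in each of the 12 libraries, and Tubb6 fell within 9.54% to 13.9%. The summed level was 1477 ± 67 CPM per kilobase without and 1312 ± 73 with paclitaxel under the EV-proficient label, and 1336 ± 54 and 1115 ± 10 under the EV-deficient one. As labelled, the highest paclitaxel library was at 1397 against 1428 for the lowest DMSO library under the EV-proficient label, and at 1125 against 1289 under the EV-deficient one. With the labels exchanged, the EV-deficient groups overlapped (1289 to 1395 without and 1268 to 1397 with paclitaxel). The sums depend on how libraries were scaled and were computed with 1 scaling, whereas shares within a library do not depend on it. As a percentage of all counts, without scaling or length correction, the members made up 0.360 to 0.380 without and 0.372 to 0.406 with paclitaxel under the EV-proficient label. The percentages under the EV-deficient label were 0.326 to 0.343 and 0.342 to 0.346. The lower sums with paclitaxel were thus not seen without the scaling. In bulk libraries, fewer cells that express a gene and less of its RNA per cell cannot be told apart.

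**Figure D1:**
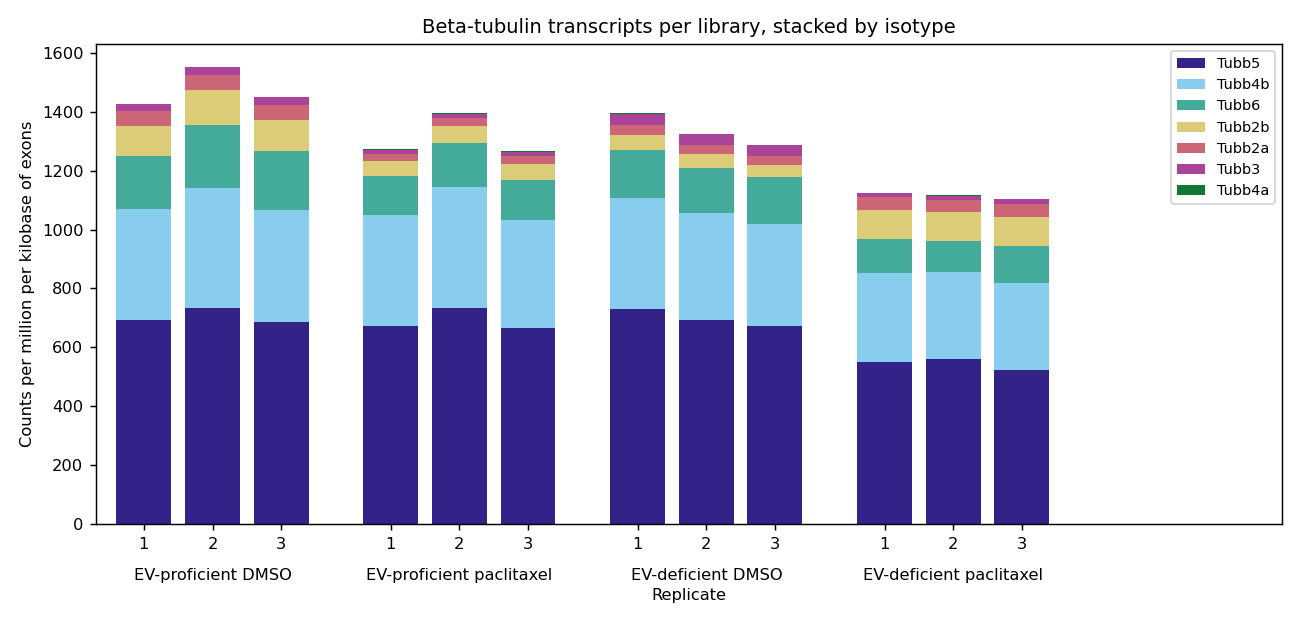
Stacked bars of the 7 beta-tubulins per library, in CPM per kilobase of annotated exons, with 3 replicates in each of the 4 groups. Tubb5 and Tubb4b fill most of each bar, the Tubb2b segment is widest in the EV-proficient DMSO and EV-deficient paclitaxel bars, and Tubb4a is too low to be seen.

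Paclitaxel was compared with DMSO under each label, here for the messages of the drug's own target. In the cells labelled EV-proficient, Tubb4a rose and Tubb2a, Tubb2b, Tubb3 and Tubb6 fell, while Tubb5 and Tubb4b did not pass the test. These 5 of 7 calls compare with 58.2% of all genes tested (31.1% higher, 27.1% lower), and groups without overlap, also 5 of 7, with 62.3%. In the cells labelled EV-deficient all 7 passed: Tubb4a, Tubb2b and Tubb2a rose, and Tubb3, Tubb6, Tubb5 and Tubb4b fell. The background there was 62.9% (32.4% higher, 30.5% lower), and 68.7% for groups without overlap, which all 7 showed. With most of the genes tested called under either label, the number of members called says little about the members. The median log2 fold change of the members was -0.53 and -0.28, against 0.05 and 0.07 over all genes tested.

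Tubb4a, the class IVA isotype of myelinating glia and neurons, rose under both labels and had the largest fold change of the 7 under the EV-proficient one. It was at 0.585, 0.766 and 0.761 CPM in the EV-proficient DMSO libraries and at 5.95, 5.91 and 8.50 CPM after paclitaxel. In the EV-deficient libraries it was at 1.34, 1.31 and 1.18 CPM in DMSO and at 3.26, 4.48 and 2.77 CPM after paclitaxel. Every paclitaxel library lay above every DMSO library, within and across labels. The log2 fold change was 3.26 ± 0.24 SE (edgeR adjusted p = 2.46e-10) under the EV-proficient label and 1.45 ± 0.22 SE (edgeR adjusted p = 6.36e-06) under the EV-deficient one. With the EV labels of the paclitaxel groups exchanged, the rises were 2.31 and 2.39. Its level stayed the lowest of the 7 in all groups, at 3.04 ± 0.67 CPM per kilobase (SD, n = 3) where it was highest, or 0.233% of the mix. The summed leukocyte and fibroblast markers were also higher with paclitaxel under both labels. The 7 leukocyte markers summed to 6.65 to 7.52 CPM without and 28.6 to 33.7 CPM with the drug under the EV-proficient label, and to 8.42 to 9.76 and 22.8 to 40.1 CPM under the EV-deficient one. Cd68, a lysosomal protein of macrophages and other cells, made up most of that sum, while the T-cell marker Cd3e was at or near 0. The 6 fibroblast markers, led by Pdgfra, summed to 1.58 to 2.49 and 5.38 to 6.33 CPM, and to 2.59 to 3.22 and 6.81 to 8.19 CPM. The neuronal list as a whole was lower with paclitaxel under the EV-proficient label (28.4 to 31.1 against 15.4 to 15.9 CPM) and higher under the EV-deficient one (13.3 to 14.2 against 35.5 to 42.6 CPM). Of its members, Map2, Stmn2 and Elavl3 had lower means with paclitaxel under the EV-proficient label, while Snap25 was at 0.468 ± 0.282 and 1.73 ± 0.40 CPM, and at 0.465 ± 0.088 and 2.06 ± 0.07 CPM (SD, n = 3 each). Their part in the Tubb4a result was not tested.

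Tubb3, the class III isotype used as a marker of neurons, fell under both labels. It was at 44.1, 50.5 and 50.02 CPM in EV-proficient DMSO libraries and at 21.0, 25.2 and 26.3 CPM in the corresponding paclitaxel libraries. In EV-deficient libraries it was at 72.9, 67.1 and 68.3 CPM in DMSO and at 23.8, 24.7 and 27.9 CPM after paclitaxel. All 6 paclitaxel libraries lay between 21.0 and 27.9 CPM, below all 6 DMSO libraries. The log2 fold changes were -0.9998 ± 0.09 SE (edgeR adjusted p = 3.61e-09) and -1.45 ± 0.09 SE (edgeR adjusted p = 6.36e-12), and -0.92 and -1.53 with the labels exchanged.

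Tubb6, the class V isotype, also fell under both labels, and by less. Its DMSO libraries ranged from 446 to 521 CPM under the EV-proficient label and from 374 to 396 CPM under the EV-deficient one, and its paclitaxel libraries from 323 to 361 and from 260 to 302 CPM. The paclitaxel libraries lay below the DMSO libraries under each label and across both. The log2 fold changes were -0.53 ± 0.07 SE (edgeR adjusted p = 9.17e-07) and -0.44 ± 0.07 SE (edgeR adjusted p = 8.35e-06), the second -0.26 with upper-quartile scaling. With the labels exchanged they were -0.79 and -0.19, both still called.

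Tubb2b and Tubb2a, the class II pair that is abundant in the developing brain, went opposite ways under the 2 labels as deposited. Tubb2b was at 234, 273 and 244 CPM in EV-proficient DMSO libraries and at 117, 135 and 128 CPM after paclitaxel. In EV-deficient libraries it was at 115, 106 and 98.4 CPM in DMSO and at 225.2, 224.8 and 225.8 CPM after paclitaxel. The EV-proficient DMSO and EV-deficient paclitaxel libraries were thus high, and the EV-proficient paclitaxel and EV-deficient DMSO libraries were low, with no overlap between those levels. The log2 fold changes were -0.98 ± 0.07 SE (edgeR adjusted p = 2.11e-10) and 1.08 ± 0.07 SE (edgeR adjusted p = 2.87e-11). These directions rest on the EV labels of the paclitaxel libraries: with those exchanged, the values were -0.15 ± 0.07 SE (edgeR adjusted p = 0.0692) and 0.25 ± 0.07 SE (edgeR adjusted p = 0.00499).

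Tubb2a had the same high and low groups, although of the low ones the EV-proficient paclitaxel libraries were here the lower. It was at 80.6, 83.0 and 80.4 CPM in EV-proficient DMSO libraries and at 43.1, 44.6 and 42.5 CPM after paclitaxel. In EV-deficient libraries it was at 54.3, 52.9 and 50.6 CPM in DMSO and at 69.2, 66.6 and 73.2 CPM after paclitaxel. Within each label the groups did not overlap, with log2 fold changes of -0.91 ± 0.06 SE (edgeR adjusted p = 8.70e-11) and 0.40 ± 0.06 SE (edgeR adjusted p = 6.43e-06). With the counts of the pair summed into 1 row, a choice made after the data were seen, the fold changes were -0.96 ± 0.07 SE (edgeR adjusted p = 6.50e-11) and 0.89 ± 0.07 SE (edgeR adjusted p = 1.20e-10). Tubb2b supplied most of the summed counts, so the sum says little about Tubb2a alone. With the labels exchanged Tubb2a fell under both, by 0.22 ± 0.06 SE (edgeR adjusted p = 0.00351) and by 0.28 ± 0.06 SE (edgeR adjusted p = 0.000696).

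The dngfr row and the summed neuronal marker list had the same high and low groups as Tubb2b. Under the EV-proficient label the 8 neuronal genes summed to between 28.4 and 31.1 CPM without and between 15.4 and 15.9 CPM with paclitaxel. Under the EV-deficient label the sums were 13.3 to 14.2 CPM without and 35.5 to 42.6 CPM with it. Map2 (group means 10.6 to 17.96 CPM) and Stmn2 (2.16 to 18.7 CPM), which both encode proteins that act on microtubules, made up most of that sum. Rbfox3 and Dcx were at or near 0, at no more than 0.178 and 0.0649 CPM in any library, and Syp, Elavl3 and Elavl4 had group means of 0.572 CPM or less. Their part in the Tubb2a and Tubb2b results was not tested.

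The most abundant isotypes, Tubb5 and Tubb4b, had the smallest fold changes of the 7 under each label. Under the EV-proficient label Tubb5 ranged from 2287 to 2445 CPM without and from 2219 to 2446 CPM with paclitaxel. Under the EV-deficient label it ranged from 2238 to 2426 CPM without and from 1735 to 1868 CPM with it. On this TMM-scaled CPM the first 3 groups overlapped and the last lay below them all. That gap depends on the scaling: the TMM factors were 0.89 to 0.91 in EV-deficient DMSO and 1.13 to 1.15 in EV-deficient paclitaxel libraries. Counts of Tubb5 taken over library totals alone overlapped between the EV-deficient groups. Its log2 fold change was -0.03 ± 0.06 SE (edgeR adjusted p = 0.698) under the EV-proficient label and -0.36 ± 0.06 SE (edgeR adjusted p = 1.21e-05) under the EV-deficient one, the latter -0.18 with upper-quartile scaling. With the labels exchanged the fall stood under the EV-proficient label (-0.37) and not under the EV-deficient one (-0.01, edgeR adjusted p = 0.844).

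Tubb4b had the same order. It ranged from 784 to 848 CPM and from 766 to 857 CPM without and with paclitaxel under the EV-proficient label, and from 726 to 793 CPM and from 613 to 635 CPM under the EV-deficient one. Again only the EV-deficient paclitaxel libraries stood apart, below the rest, on the TMM-scaled CPM. Counts of Tubb4b over library totals alone also overlapped between the EV-deficient groups. The log2 fold changes were -0.01 ± 0.06 SE (edgeR adjusted p = 0.922) and -0.28 ± 0.06 SE (edgeR adjusted p = 0.000254). The second call was lost with upper-quartile scaling (-0.10, edgeR adjusted p = 0.115). With the labels exchanged the values were -0.37 (edgeR adjusted p = 1.18e-05) and 0.08 (edgeR adjusted p = 0.245).

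**Figure D2:**
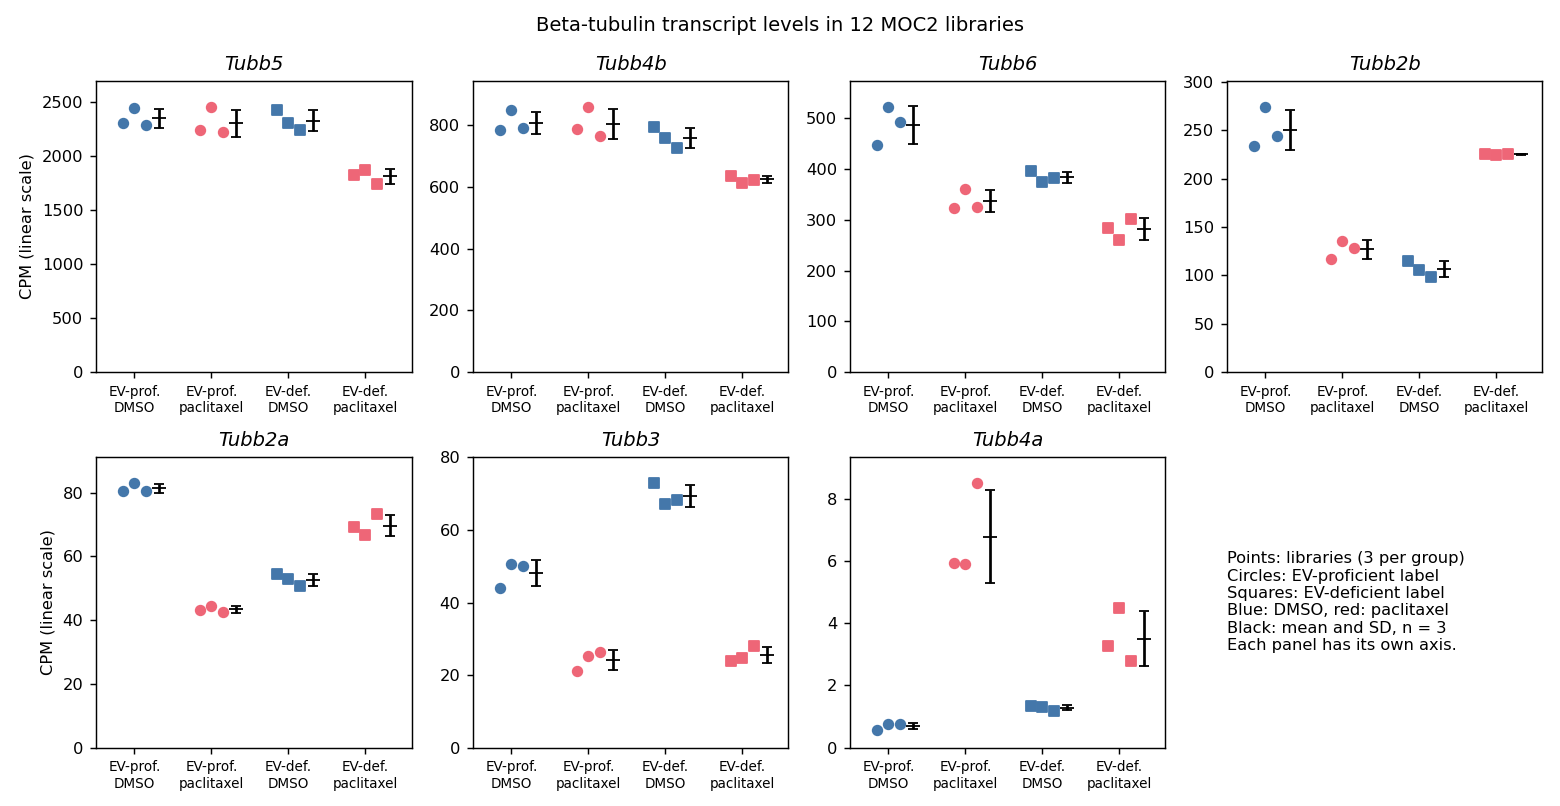
Levels of the 7 beta-tubulins in each of the 12 libraries, in CPM on linear axes that start at 0 and differ between panels, with the mean and SD of the 3 libraries of a group in black. Tubb4a is higher and Tubb3 and Tubb6 are lower in all paclitaxel libraries, Tubb2b and Tubb2a are high in EV-proficient DMSO and EV-deficient paclitaxel libraries, and Tubb5 and Tubb4b are lower in EV-deficient paclitaxel libraries than in the other groups.

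Averaged over both labels, a contrast added after the data were seen, 6 of the 7 members passed, 1 higher and 5 lower, against 68.4% of all genes (37.1% higher, 31.3% lower). Tubb4a rose by 2.35 ± 0.16 SE on the log2 scale (edgeR adjusted p = 3.42e-11). Tubb3 fell by 1.22 ± 0.06 SE (edgeR adjusted p = 2.24e-13) and Tubb6 by 0.49 ± 0.05 SE (edgeR adjusted p = 1.15e-08). Smaller falls were called for Tubb2a (-0.25 ± 0.04 SE, edgeR adjusted p = 3.15e-05), Tubb5 (-0.19 ± 0.04 SE, edgeR adjusted p = 0.000237) and Tubb4b (-0.14 ± 0.04 SE, edgeR adjusted p = 0.00395). Those of Tubb5 (-0.07) and Tubb4b (-0.02) were lost with upper-quartile scaling and that of Tubb2a shrank to -0.13. Tubb2b, at 0.05 ± 0.05 SE (edgeR adjusted p = 0.39), did not pass, but did with upper-quartile scaling (0.17, edgeR adjusted p = 0.00283). The average for the summed class II pair was -0.04 ± 0.05 SE (edgeR adjusted p = 0.504).

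The comparison of EV labels within a treatment asks what accompanied the block of vesicle release. Under DMSO, 5 of 7 members passed, against 23.0% of all genes tested (12.4% higher, 10.6% lower), and 5 did not overlap, against 43.3%. Their signs would turn if the labels of the DMSO groups were the exchanged ones. Tubb2b (-1.23 ± 0.07 SE, edgeR adjusted p = 3.63e-11), Tubb2a (-0.63 ± 0.06 SE, edgeR adjusted p = 1.07e-07) and Tubb6 (-0.34 ± 0.07 SE, edgeR adjusted p = 0.000788) were lower in the libraries labelled EV-deficient. Tubb3 (0.53 ± 0.09 SE, edgeR adjusted p = 8.28e-05) and Tubb4a (0.86 ± 0.25 SE, edgeR adjusted p = 0.0166) were higher there. The Tubb4a call was not made by limma-voom (adjusted p = 0.116), without EV-proficient DMSO replicate 1 (0.75, edgeR adjusted p = 0.0741) or without EV-deficient DMSO replicate 1 (0.83, edgeR adjusted p = 0.0545). Tubb5 (-0.01 ± 0.06 SE) and Tubb4b (-0.09 ± 0.06 SE) did not pass, with edgeR adjusted p = 0.907 and 0.312, although Tubb4b was called when only these 6 libraries were fitted (-0.12, edgeR adjusted p = 0.0422).

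Under paclitaxel, 6 of 7 members passed, against 37.8% of all genes (16.0% higher, 21.8% lower), and 6 did not overlap, against 44.1%. All of these differences would change sign if the labels were exchanged. Tubb2b (0.83 ± 0.07 SE, edgeR adjusted p = 1.54e-08) and Tubb2a (0.68 ± 0.06 SE, edgeR adjusted p = 3.40e-08) were now higher in the libraries labelled EV-deficient. Tubb4a (-0.95 ± 0.20 SE, edgeR adjusted p = 0.000923), Tubb4b (-0.36 ± 0.06 SE, edgeR adjusted p = 4.86e-05), Tubb5 (-0.35 ± 0.06 SE, edgeR adjusted p = 6.93e-05) and Tubb6 (-0.25 ± 0.07 SE, edgeR adjusted p = 0.00582) were lower. Tubb6 lost its call with upper-quartile scaling (-0.16, edgeR adjusted p = 0.0633) and without EV-proficient paclitaxel replicate 2 (-0.19, edgeR adjusted p = 0.0548). Tubb3 did not pass (0.08 ± 0.09 SE, edgeR adjusted p = 0.514). As labelled, Tubb2b, Tubb2a and Tubb4a thus differed between derivatives in opposite directions under DMSO and under paclitaxel, while Tubb6 was lower under the EV-deficient label with either treatment.

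**Figure D3:**
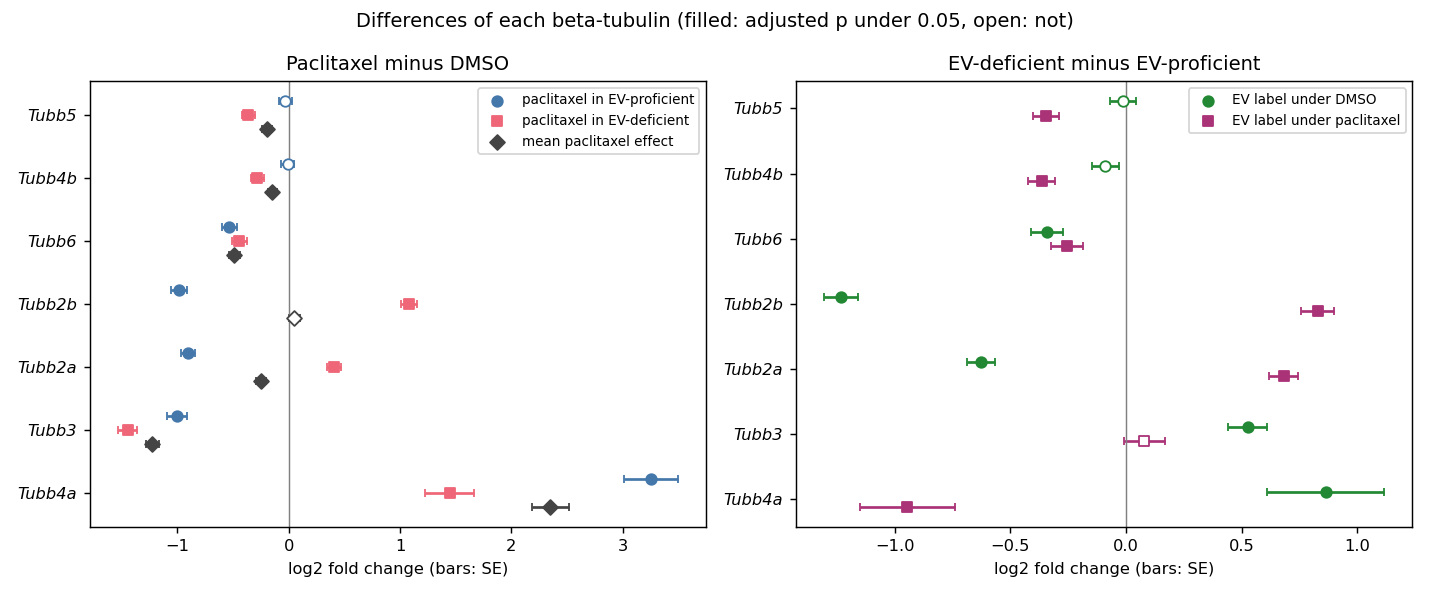
Log2 fold changes with standard errors for the 7 members: paclitaxel minus DMSO under each EV label and averaged (left), and EV-deficient minus EV-proficient under each treatment (right), with filled symbols where the edgeR adjusted p is under 0.05. Tubb2b and Tubb2a lie on opposite sides of 0 for the 2 labels (left) and for the 2 treatments (right), Tubb4a lies far to the right for paclitaxel under both labels, and Tubb3 and Tubb6 lie left of 0 for paclitaxel under both.

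Whether the paclitaxel response differed between the labels was tested as the interaction, the effect under the EV-deficient label minus that under the EV-proficient one. It passed for 6 of 7 members, against 40.7% of all genes (16.9% higher, 23.8% lower). As labelled, Tubb2b had the largest value (2.06 ± 0.10 SE, edgeR adjusted p = 8.09e-13), followed by Tubb4a (-1.81 ± 0.33 SE, edgeR adjusted p = 0.00012) and Tubb2a (1.31 ± 0.09 SE, edgeR adjusted p = 1.26e-10). Tubb3 (-0.45 ± 0.12 SE, edgeR adjusted p = 0.00586), Tubb5 (-0.33 ± 0.08 SE, edgeR adjusted p = 0.00231) and Tubb4b (-0.27 ± 0.08 SE, edgeR adjusted p = 0.011) were below 0. The Tubb5 value was -0.21 with upper-quartile scaling. The Tubb4b call was lost with that scaling (-0.15, edgeR adjusted p = 0.12), without EV-proficient paclitaxel replicate 2 (-0.18, edgeR adjusted p = 0.085) and without EV-deficient paclitaxel replicate 2 (-0.21, edgeR adjusted p = 0.0558). Tubb6 did not pass (0.09 ± 0.10 SE, edgeR adjusted p = 0.513). Neither the order nor the larger sizes held with the EV labels of the paclitaxel libraries exchanged, where 9.6% of all genes passed. Tubb2b was then at 0.40 ± 0.10 SE (edgeR adjusted p = 0.0149), Tubb4a at 0.08 ± 0.34 SE (edgeR adjusted p = 0.911) and Tubb2a at -0.05 ± 0.09 SE (edgeR adjusted p = 0.747). Tubb6 (0.60), Tubb4b (0.45), Tubb5 (0.36) and Tubb3 (-0.61) passed, as Tubb2b did. Of these, only Tubb2b and Tubb3 had passed with the same sign as labelled.

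Genes whose profile over the 12 libraries lay closest to a member were sought among 10256 genes with a mean of at least 5 CPM, by the root-mean-square difference of log2 CPM centred on each gene's mean. The closest to Tubb6 were Npepl1 at a difference of 0.030, Srebf1 at 0.081 and Ninj1 at 0.082, against a range of 1.01 for Tubb6 itself. For Tubb2b, which spanned 1.47, they were Anxa6 (0.089), 9430020K01Rik (0.12) and Stx2 (0.12), and for Tubb2a S100a13 (0.083), Kidins220 (0.089) and Gpd1l (0.093). Tubb3 had the widest span of the members searched, 1.79, and also the largest absolute differences, to Ckb (0.15), Cisd3 (0.16) and Amotl2 (0.16). The nearly flat Tubb5 and Tubb4b were approached by Dhdds (0.048), Spag7 (0.051) and Pdxdc1 (0.051), and by Etv4 (0.047), Irak1 (0.051) and Sigirr (0.054). Tubb4a was below the level set for this search.

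The genes that make, fold and modify tubulin were read from 6 lists, chosen with earlier results of these data known. Their counts are to be read against all genes tested, of which 31.1% were higher and 27.1% lower under the EV-proficient label (median 0.05), 32.4% and 30.5% under the EV-deficient one (median 0.07), and 37.1% and 31.3% on average over both (median 0.07). The within-label values rest on the deposited EV labels, and only the averages do not. Of 8 alpha-tubulins, the partners of beta-tubulin in the dimer, 6 were tested. Under the EV-proficient label 1 rose (Tuba8, 1.93 ± 0.19 SE, edgeR adjusted p = 1.43e-08) and 4 fell, and under the EV-deficient label 2 rose and 4 fell (3 with upper-quartile scaling). Tuba1b fell under both labels (-0.97 ± 0.07 and -1.12 ± 0.07 SE). Tuba1a, the alpha isotype prominent in neurons, had the same high and low groups as Tubb2b, at 567 ± 20 and 232 ± 19 CPM in EV-proficient DMSO and paclitaxel libraries and 253 ± 12 and 548 ± 39 CPM in the EV-deficient ones (SD, n = 3 each). Its log2 fold changes were -1.29 ± 0.07 SE (edgeR adjusted p = 1.79e-12) and 1.12 ± 0.07 SE (edgeR adjusted p = 7.15e-12). The other rise under the EV-deficient label was Tubal3 (2.02 ± 0.85 SE, edgeR adjusted p = 0.043), at no more than 0.54 CPM in any library and with groups that overlapped. DESeq2 and limma-voom did not call it, and without EV-deficient paclitaxel replicate 1 its value was 0.81 (edgeR adjusted p = 0.473). The call was also lost when any of 9 other libraries was left out. The value of Tuba8 under the EV-deficient label was -0.45 ± 0.18 SE (edgeR adjusted p = 0.0339). That call was lost with upper-quartile scaling (-0.27, edgeR adjusted p = 0.2), with DESeq2 (-0.43, adjusted p = 0.0513), with a filter of 1 CPM in 3 libraries and with only the groups compared. It was also lost without EV-deficient DMSO replicate 3 (-0.33), EV-deficient paclitaxel replicate 1 (-0.48) or replicate 3 (-0.32). On average over both labels 1 rose (Tuba8, 0.74 ± 0.13 SE, edgeR adjusted p = 2.93e-05) and 3 fell, Tuba1b by 1.04 ± 0.05 SE (edgeR adjusted p = 1.11e-13).

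The CCT chaperonin is the barrel that folds newly made tubulin and actin. Of its 8 subunits, 6 fell under the EV-proficient label (median of the list -0.34) and 8 under the EV-deficient one (median -0.68, or 6 subunits and -0.49 with upper-quartile scaling), and none rose. On average over both labels 8 fell, with a median of -0.58, or 7 and -0.46 with upper-quartile scaling. Cct3 fell from 749 ± 30 to 408 ± 20 CPM and from 823 ± 35 to 364 ± 18 CPM (SD, n = 3 each), a change of -0.88 ± 0.06 SE (edgeR adjusted p = 7.43e-11) and -1.18 ± 0.06 SE (edgeR adjusted p = 5.36e-13). Cct6a fell by 1.02 ± 0.07 SE under the EV-proficient label and was at -0.24 ± 0.06 SE under the EV-deficient one, a call lost with upper-quartile scaling (-0.06, edgeR adjusted p = 0.419). Prefoldin, which hands nascent tubulin to CCT, had 2 of 6 subunits higher (Vbp1 0.24 ± 0.09 SE, Pfdn5 0.24 ± 0.07 SE) and 1 lower (Pfdn4, -0.40 ± 0.09 SE) under the EV-proficient label. Vbp1 lost its call without EV-proficient DMSO replicate 3, EV-proficient paclitaxel replicate 1 or 3, or EV-deficient paclitaxel replicate 1 or 2 (0.13 to 0.19), and Pfdn5 without EV-proficient paclitaxel replicate 2 (0.11). Under the EV-deficient label 5 of 6 were lower, with Pfdn6 at -0.88 ± 0.10 SE and Pfdn2 at -0.60 ± 0.08 SE, or 3 lower and 1 higher with upper-quartile scaling. On average 1 was higher and 4 were lower (2 and 3 with upper-quartile scaling, 0 and 4 with limma-voom), with Pfdn6 at -0.54 ± 0.07 SE.

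The tubulin folding cofactors assemble the dimer after CCT. Of the 7, 2 rose and 2 fell under the EV-proficient label, and 1 rose and 4 fell under the EV-deficient one (2 and 3 with upper-quartile scaling). On average 2 rose and 3 fell (3 and 3 with upper-quartile scaling, 1 and 3 with DESeq2). Tbcd, the beta-tubulin cofactor, fell under both (-0.70 ± 0.06 SE and -0.42 ± 0.06 SE), as did Tbcb, an alpha-tubulin cofactor (-0.44 ± 0.08 SE and -0.39 ± 0.08 SE). With upper-quartile scaling the second values were -0.23 and -0.21, both still called. Tbcc, which acts last in that assembly, fell by 0.90 ± 0.12 SE under the EV-deficient label (edgeR adjusted p = 1.56e-06). The regulatory GTPase Arl2 rose by 0.57 ± 0.09 SE under the EV-proficient label and was at -0.38 ± 0.09 SE under the EV-deficient one, a call lost with upper-quartile scaling (-0.20, edgeR adjusted p = 0.0612). Of the 4 autoregulation genes, Ttc5, the ribosome-bound tubulin sensor, rose under both labels (0.38 ± 0.08 SE, edgeR adjusted p = 0.000428, and 0.34 ± 0.08 SE, edgeR adjusted p = 0.000991, the second 0.53 with upper-quartile scaling). Scaper, its adaptor to the CCR4-NOT deadenylase, rose from 15.1 ± 2.2 to 35.2 ± 1.5 CPM and from 13.9 ± 0.67 to 32.7 ± 6.8 CPM (SD, n = 3 each), by 1.21 ± 0.12 SE (edgeR adjusted p = 3.06e-08) and 1.23 ± 0.12 SE (edgeR adjusted p = 1.53e-08). The deadenylase subunit Cnot10 fell under both (-0.20 ± 0.07 SE and -0.83 ± 0.07 SE), its first call lost with upper-quartile scaling, with no low-count filter and without EV-proficient DMSO replicate 2 (-0.18). Cnot11 fell under the EV-deficient label (-0.54 ± 0.08 SE, or -0.36 with upper-quartile scaling). On average over both labels Scaper (1.22 ± 0.09 SE) and Ttc5 (0.36 ± 0.06 SE) rose and 2 fell.

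The enzymes that add or remove glutamate and glycine chains on tubulin tails form a list of 17, of which 11 were tested. Under the EV-proficient label 4 rose and 4 fell (4 and 3 with upper-quartile scaling, 4 and 2 with no low-count filter). For the EV-deficient label 5 rose and 2 fell (6 and 2 with upper-quartile scaling), while on average 5 rose and 4 fell (5 and 2 with upper-quartile scaling). Of all genes 58.2%, 62.9% and 68.4% passed in these comparisons. Ttll13, a glutamylase, rose from 0.273 ± 0.017 to 1.39 ± 0.11 CPM and from 0.353 ± 0.166 to 1.02 ± 0.45 CPM (SD, n = 3 each), by 2.33 ± 0.43 SE (edgeR adjusted p = 7.60e-05) and 1.53 ± 0.40 SE (edgeR adjusted p = 0.00237). Ttll10, a glycylase, rose by 1.48 ± 0.42 SE (edgeR adjusted p = 0.00488) and 1.41 ± 0.43 SE (edgeR adjusted p = 0.00751), the second call lost without EV-deficient paclitaxel replicate 2 (0.91, edgeR adjusted p = 0.0792). Ttll4, which starts glutamate chains, fell by 0.70 ± 0.06 SE under the EV-deficient label (edgeR adjusted p = 3.86e-09).

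**Figure D4:**
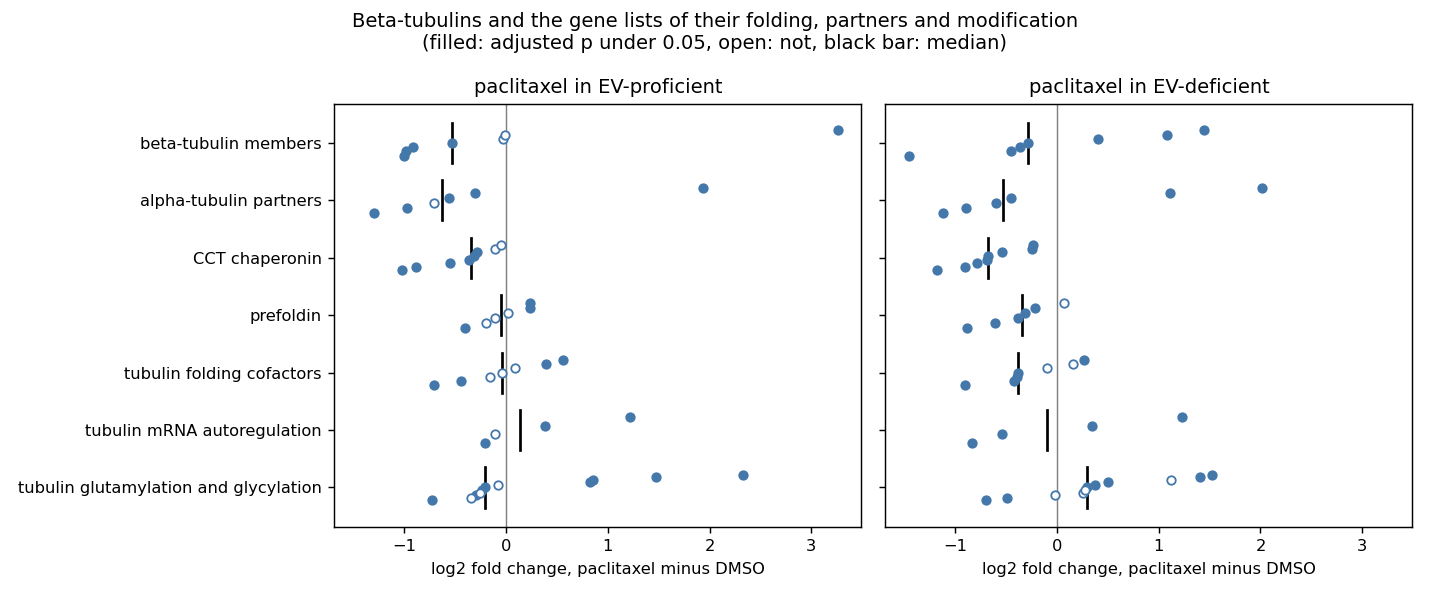
Log2 fold changes under paclitaxel for the tested members of 7 gene groups, in cells labelled EV-proficient (left) and EV-deficient (right), with filled points where the edgeR adjusted p is under 0.05 and a black bar at each list's median. All CCT points lie left of 0 in both panels, while the beta- and alpha-tubulins spread to both sides.

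Promoters are printed because members moved together in some groups and apart in others. The RefSeq table (GRCm38.p6) held 5 of the 7, each from 250 bases before to 50 after RefSeq's own start of the gene, and lacked Tubb2b and Tubb6. These starts are not always the ends of the GENCODE genes given above: those of Tubb5, Tubb3 and Tubb4a lie inside the GENCODE spans. Capitals mark matches on either strand to 4 motifs, which did not overlap one another. The motif CCAAT names the CCAAT box and TATAAA is a TATA box. The letters GGGCGG are the core of a GC box. The palindrome TGACGTCA is the cyclic AMP response element.
Tubb5, chr17:35838252-35838551, minus strand: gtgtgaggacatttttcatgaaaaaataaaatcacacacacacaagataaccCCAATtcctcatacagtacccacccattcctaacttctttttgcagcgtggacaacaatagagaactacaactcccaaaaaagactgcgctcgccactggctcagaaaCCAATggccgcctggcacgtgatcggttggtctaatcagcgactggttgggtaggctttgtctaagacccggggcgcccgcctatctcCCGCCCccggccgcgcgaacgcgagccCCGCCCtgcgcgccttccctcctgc
Tubb4b, chr2:25224653-25224952, minus strand: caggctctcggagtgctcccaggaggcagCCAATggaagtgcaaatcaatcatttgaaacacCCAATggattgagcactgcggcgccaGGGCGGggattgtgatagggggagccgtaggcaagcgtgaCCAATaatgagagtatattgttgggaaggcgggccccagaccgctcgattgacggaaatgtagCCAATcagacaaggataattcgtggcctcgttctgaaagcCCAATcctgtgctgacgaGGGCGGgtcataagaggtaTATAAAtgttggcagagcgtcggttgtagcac
Tubb2a, chr13:34077959-34078258, minus strand: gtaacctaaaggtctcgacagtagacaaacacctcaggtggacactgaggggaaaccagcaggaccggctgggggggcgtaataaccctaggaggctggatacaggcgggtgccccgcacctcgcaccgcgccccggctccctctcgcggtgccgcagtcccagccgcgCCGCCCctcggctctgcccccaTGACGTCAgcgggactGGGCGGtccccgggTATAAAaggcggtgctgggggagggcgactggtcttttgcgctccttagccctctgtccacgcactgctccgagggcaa
Tubb3, chr8:123411303-123411602, plus strand: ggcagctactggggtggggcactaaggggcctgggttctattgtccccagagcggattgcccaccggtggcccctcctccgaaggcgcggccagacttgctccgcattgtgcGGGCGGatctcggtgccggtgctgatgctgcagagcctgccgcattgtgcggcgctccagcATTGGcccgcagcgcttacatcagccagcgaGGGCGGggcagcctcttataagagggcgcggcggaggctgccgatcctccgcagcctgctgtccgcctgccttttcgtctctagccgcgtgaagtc
Tubb4a, chr17:57087551-57087850, minus strand: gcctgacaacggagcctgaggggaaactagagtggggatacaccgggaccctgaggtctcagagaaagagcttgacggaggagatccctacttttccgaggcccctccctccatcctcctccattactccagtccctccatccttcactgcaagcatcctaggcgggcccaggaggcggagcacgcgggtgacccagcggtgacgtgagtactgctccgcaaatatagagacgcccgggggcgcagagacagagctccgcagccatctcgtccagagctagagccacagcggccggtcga
Tubb4b held 5 matches to CCAAT, Tubb5 held 2 and Tubb3 held 1, a motif found in 37.4% of the 32851 promoters of this length. GGGCGG was matched at 2 places each in Tubb5, Tubb4b, Tubb2a and Tubb3 (35.7% of all promoters), and TATAAA at 1 place each in Tubb4b and Tubb2a (13.6%). Relative to the gene start, the TATAAA match began at -29 in Tubb2a but at 18, past the start, in Tubb4b. TGACGTCA occurred in Tubb2a alone among the 5, against 1.79% of all promoters, and Tubb4a matched none of the 4 motifs. These matches describe letters and not bound sites.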

How the data were processed

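Per the labels' protocols, 12 stranded libraries were made from poly(A) RNA of MOC2 cells. The deposited values are raw counts by gene in a single table. STAR 2.5.0a and GRCm38 are named in the submitters' processing notes, and the counting program, the annotation release and the use of strand are not given in the sources used here. Columns were matched to samples by the sample descriptions, and 0 columns belonged to other samples. The 2 rows the authors added for gfp (0 counts in all libraries) and dngfr sequences stayed out of library sizes and tests.

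The tests used edgeR 4.0.16 (R 4.3.3). Genes were filtered by filterByExpr (minimum count 10, 18108 of 35104 genes with any count kept) and scaled by trimmed mean of M values (TMM). All 12 libraries entered 1 quasi-likelihood fit of group means, with Benjamini-Hochberg adjustment over all genes tested and a threshold of 0.05. A standard error is the size of the log2 fold change over the root of its F statistic. Checked on simulated counts for paclitaxel in EV-proficient cells (16299 genes tested), the test recovered 74.2% of 1.5-fold, 78.6% of 2-fold and 91.2% of 4-fold changes, with 5 false calls. Only 200 genes were changed there, in random directions, against 10538 genes called in the data. These rates therefore need not hold for the data. Alternatives used DESeq2 1.42.0, limma-voom (limma 3.58.1), other scalings, filters and sample sets, and, added after the data were seen, the EV labels of the paclitaxel groups exchanged.

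The members and lists were chosen with earlier results of these data known. The text names all 7 members, at most 3 genes of a list per comparison by size of change among those called (a gene so named may be given in other comparisons too), and the 3 genes closest in profile to each member of at least 5 CPM (prior count 2). Genomic positions, exon lengths and transcripts came from GENCODE M21, and promoters from RefSeq. Libraries of a group were compared before averaging: chi-square per degree of freedom lay between 4.49 and 31.3, so no pair agreed within sampling noise.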

Additional observations from a re-analysis of the deposited data

Results flagged for a closer look

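For the libraries as labelled, the paclitaxel effect differed between the EV labels, by the interaction test, for 6 members: Tubb2b (2.06 on the log2 scale), Tubb2a (1.31), Tubb5 (-0.33), Tubb4b (-0.27), Tubb3 (-0.45) and Tubb4a (-1.81). The same test passed for 40.7% of all genes, and for 9.6% with the EV labels of the paclitaxel libraries exchanged, an exchange that these files could not settle. Among the genes named from the lists it also differed for the alpha-tubulins Tuba1a (2.40), Tuba8 (-2.38) and Tuba1c (-0.58). In the chaperonin and prefoldin it differed for Cct6a (0.78), Cct7 (-0.54), Cct2 (-0.49), Pfdn6 (-0.69), Pfdn2 (-0.50) and Pfdn5 (-0.45). The same held for the cofactors Arl2 (-0.95), Tbcc (-0.75) and Tbcd (0.29, its call lost with no low-count filter), for Agtpbp1 (1.02), Ttll7 (0.71) and Ttll4 (-0.46), which act on tubulin tails, and for Cnot10 (-0.63) and Cnot11 (-0.43). The dngfr row, outside the gene tests, held at least 93 counts in every library, above the floor of 3 counts, while the gfp row held 0.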

How the results depend on the processing

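Under every alternative that kept the deposited labels, the number of members called stayed within 1.5 times the reported number in all comparisons (118 of 118 values). With 5 to 7 of 7 members called to begin with, that margin was hard to miss, so this count says little. Of 826 log2 fold changes recomputed for single members, 813 kept their direction and their side of the threshold or stayed uncalled, 11 lost a call, 2 gained one and 0 reversed. Those 13 are given in the text beside their results, as is the summed class II pair. Upper-quartile scaling moved the median of all genes by 0.18 for paclitaxel under the EV-deficient label and by 0.12 for the interaction, and the small falls of Tubb5 and Tubb4b are to be read against that shift. With the replicate number as a block, 5, 7, 5, 6 and 6 members were called in the 5 planned comparisons, as without it. Samples with the same number did not deviate together (correlations from -0.081 to 0.097), so the numbers were not taken as pairs. The share of Tubb5 in the isotype mix was 51.9% and 52.2% in EV-deficient DMSO and EV-proficient paclitaxel libraries with the longest transcript as length. Without any length correction it was 58.4% and 63.2% in EV-proficient DMSO and paclitaxel libraries and 62.9% and 59.5% in the EV-deficient ones. With the EV labels of the paclitaxel libraries exchanged, values turned sign for Tubb2a (-0.28) and Tubb4b (0.082) for paclitaxel under the EV-deficient label, and Tubb5 (0.36), Tubb2a (-0.055), Tubb4a (0.083) and Tubb4b (0.45) for the interaction. Tubb4a, Tubb3 and Tubb6 kept the direction and call of their paclitaxel effects under both labels. Depth limited Tubb4a most, at 24 to 32 counts in EV-proficient DMSO libraries.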
